A study of Mus musculus with 14 samples.

Results

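The comparison is between macrophages sorted from the injured mouse brain as Arg1- (4 arrays) and monocytes sorted from the blood of injured mice (3 arrays), both taken on day 1 after traumatic brain injury (TBI). These are 7 of the 14 arrays of the series, chosen by their titles alone. All groups came from male YARG mice aged 12 to 16 weeks, a strain in which the Arginase-1 (Arg1) locus also drives a yellow fluorescent reporter. The injury was a controlled cortical impact, in which a piston strikes the brain through an opening in the skull. The other 7 arrays, 4 of Arg1+ brain macrophages after the same injury and 3 of monocytes from the blood of mice with no treatment, entered the fit for the estimate of the spread and are quoted where they place a value. The labels do not say whether replicates came from separate or pooled mice, so p-values measure the spread between these samples, part of which may be technical. Brain cells passed through collagenase digestion and a Percoll gradient and blood cells through a ficoll gradient, so tissue and preparation cannot be told apart in any difference given here.

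Monocytes circulate as Ly6C-high cells, which enter injured tissue through the chemokine receptor CCR2, and as Ly6C-low patrolling cells, which crawl along vessel walls with the help of the integrin LFA-1. In tissue, a monocyte that becomes a macrophage takes up dying cells, digests them in lysosomes, secretes chemokines that draw in further leukocytes, and releases proteases and growth factors used in repair. The question here is which of these functions separate the Arg1- cells in the brain from the circulating monocytes of mice in the same injured state.

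Each value is the log2 of a probe's background-subtracted signal over the 75th percentile of its array, with a floor at -4.32, and each difference is Arg1- brain minus post-TBI blood on that log2 scale, with the standard error of the fit after the ± sign. The 75th percentile signal was 151 to 418 intensity units on the Arg1- arrays and 170 to 369 on the blood arrays, and the share of probes well above background was 56.3% to 67.2% and 53.9% to 66.0%. Arrays correlated at r of 0.955 to 0.984 within the Arg1- group and at 0.869 to 0.918 between the groups. Within the blood group, replicate 4 correlated with the others at 0.937 to 0.960 and those with each other at 0.985, so list counts that move by 1.5 times or more without replicate 4 are given without it as well. The sort used antibodies to CD45, CD11b, Ly6G and F4/80. Itgam (CD11b) read 4.62, 4.23, 4.38 and 4.14 on the Arg1- arrays and 4.24, 4.00 and 3.82 on the blood arrays, with no difference that passed the test (0.32 ± 0.19, adjusted p = 0.23). Ptprc (CD45) and Adgre1 (F4/80) were well above background on all 7 arrays and lower in the brain cells, with differences of -1.03 ± 0.18 (adjusted p = 0.00038) and -0.96 ± 0.19 (adjusted p = 0.0014). Csf1r, the receptor for the growth factor that keeps monocytes and macrophages alive, read 6.66, 6.45, 6.21 and 6.41 against 6.48, 6.80 and 7.56 and did not pass the test (adjusted p = 0.15). Of its 3 probes, with differences of -0.61 to -0.03, 1 was called lower, and the gene was called lower in 1 of 27 alternatives. Ly6g was not among the tested genes.

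Arg1 itself, the gene whose reporter gave the Arg1- fraction its name, was well above background on all 4 Arg1- arrays. It read 4.20, 3.94, 2.40 and 2.12 on the Arg1- arrays and -3.58, -3.62 and -3.25 on the blood arrays, a difference of 6.65 ± 0.43 or 100.2-fold (adjusted p = 5.9e-08). The groups did not overlap, and replicates 1 and 2 of the Arg1- cells read above replicates 3 and 4. Arg1+ cells averaged 6.41, and the Arg1- cells were lower than these, with a difference of -3.25 (adjusted p = 0.00053).

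Of 21969 tested genes, 3740 (17.0%) were higher and 3592 (16.4%) lower in Arg1- brain cells at an adjusted p under 0.05, 33.4% in all, and the median difference of all tested genes was -0.02. Over 2-fold differences numbered 2363 higher and 2014 lower among the called genes, and over 8-fold differences 238 and 115. The 4 and 3 arrays did not overlap for 8120 genes (37.0%). Without blood replicate 4, 3387 genes were called higher and 3336 lower. Arrays of both groups shared 3 slides, and 7032 of the 7332 called genes had the same sign within each of the 3. This count is not separate support, since the same arrays gave the calls. For the 6718 called genes without overlap, the sign within a slide was fixed by that.

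**Figure D1:**
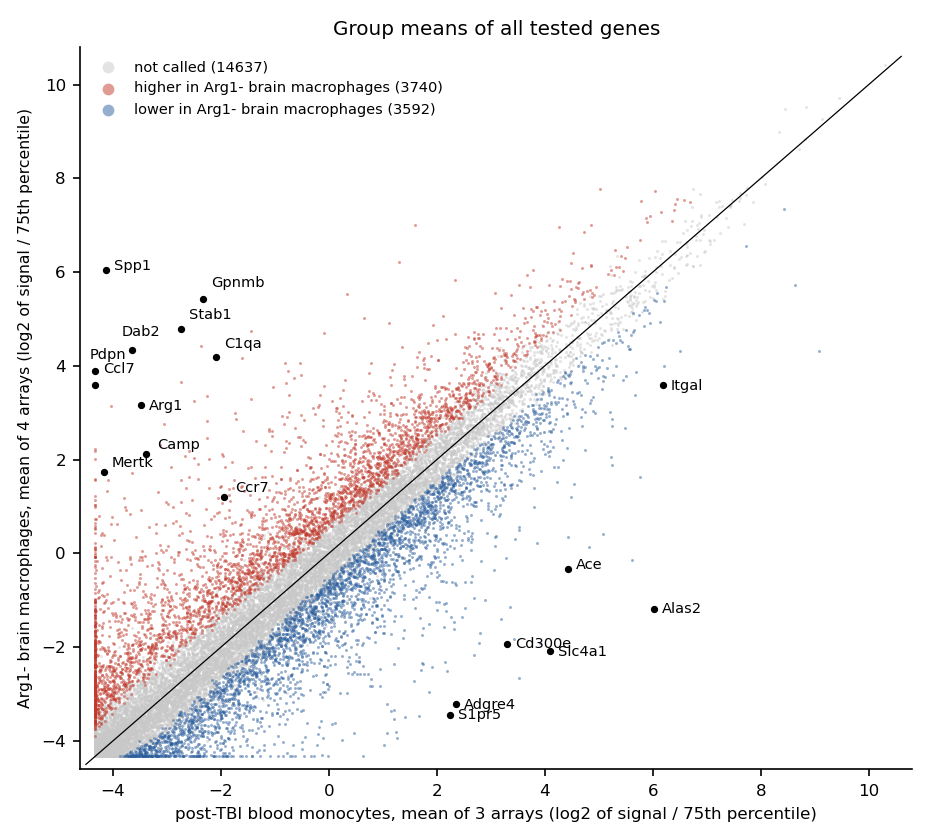
Mean log2 signal over the 75th percentile of each tested gene in the 3 post-TBI blood arrays (x axis) and the 4 Arg1- brain arrays (y axis), coloured by whether the gene was called; the line marks equal values. The 3740 higher genes lie above the line, with Spp1 and Gpnmb far from it, and the 3592 lower genes lie below it, with Alas2 and Adgre4 far from it.

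The largest increase among genes with a symbol was that of Spp1, which encodes osteopontin, a secreted matrix and adhesion protein. Spp1 read 6.32, 6.25, 5.69 and 5.95 on the Arg1- arrays and -3.76, -4.32 and -4.32 on the blood arrays, a difference of 10.19 ± 0.21 or 1165-fold (adjusted p = 1.5e-13). Blood signal was at the floor on 2 of the 3 arrays and the probe was well above background on 1 of them, so the size of this and other differences from genes at the floor depends on where the floor was set. Pdpn, the surface glycoprotein podoplanin, read 4.58, 3.60, 3.94 and 3.47 against the floor on all 3 blood arrays. That makes it at least 298-fold higher on this scale, a bound set by the floor (adjusted p = 1.8e-11). Its log2 difference ran from 5.771 to 10.09 over the alternatives. Dab2, an adaptor for endocytosis, was higher by 7.97 ± 0.28 (adjusted p = 4.3e-11), and Gpnmb, a glycoprotein of phagolysosomes, by 7.76 ± 0.46 (adjusted p = 2.7e-08), or by 3.23 with its other probe. The scavenger receptor Stab1 read 4.97, 4.65, 4.73 and 4.81 on the Arg1- arrays and -2.99, -2.87 and -2.36 on the blood arrays, with no overlap, a difference of 7.53 ± 0.29 (adjusted p = 3.3e-10). Syngr1, Emp1 and Sdc4, a vesicle protein, a tetraspan membrane protein and a heparan sulphate proteoglycan, complete the leading increases together with Ccl7, Inhba, Arg1 and Ltf, which are described with their groups. The probes used for Syngr1 and Sdc4 were at the floor on every blood array, at least 93-fold and at least 80.9-fold higher in the brain cells, while other probes of both genes were above background in blood, and Emp1 was higher by 6.40 ± 0.44.

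The largest decreases were led by genes of red cells and platelets. Alas2, the first enzyme of heme synthesis in erythroid cells, read -0.92, -1.36, -1.48 and -0.95 on the Arg1- arrays and 5.70, 5.87 and 6.51 on the blood arrays, a difference of -7.20 ± 0.56 (adjusted p = 1.9e-07). Slc4a1 (the red cell anion exchanger), Bpgm (which makes the ligand that lowers haemoglobin's oxygen affinity), Car2 (carbonic anhydrase 2) and Trim10 are genes known from erythroid cells and were lower, with differences of -6.19, -5.75, -5.24 and -5.19. Alox12, the platelet 12-lipoxygenase, and Gng11 were lower, with differences of -6.19 ± 0.65 and -5.14 ± 0.52. Of the 12 leading decreases, S1pr5, Adgre4 and Cd300e are known from patrolling monocytes. The red cell markers summed to 65.4 to 123 times the 75th percentile on the blood arrays and to 0.676 to 1.12 on the Arg1- arrays, and whether such RNA contributes to other differences was not tested. In these bulk samples, fewer cells of a type and less RNA per cell cannot be told apart.

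**Figure D2:**
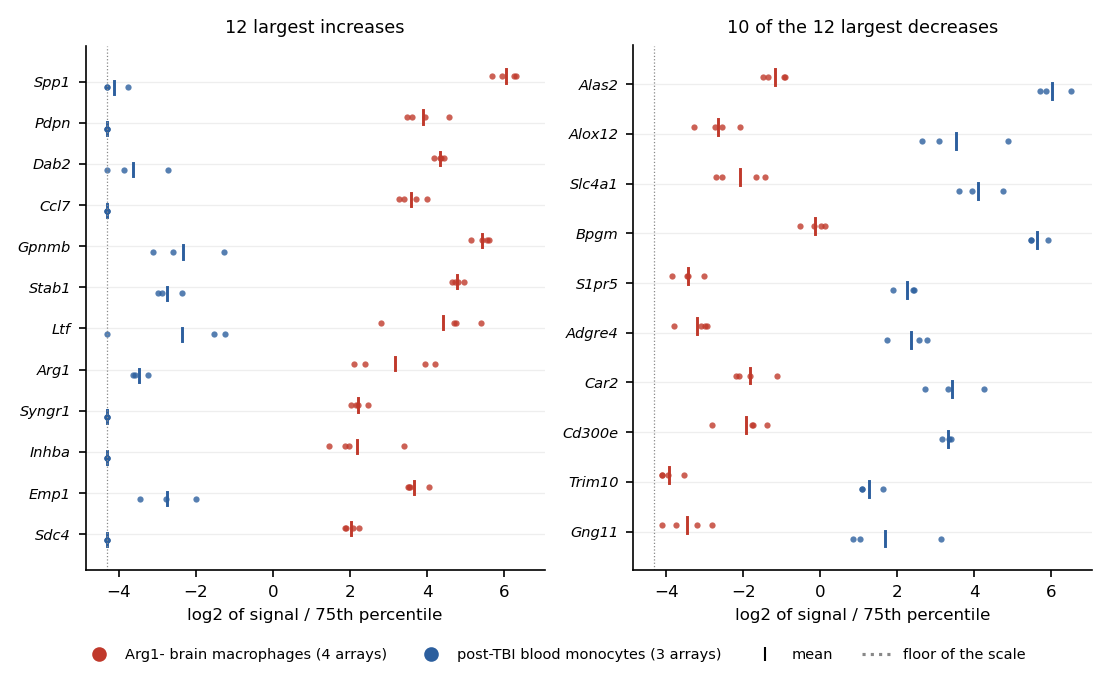
Each array's log2 signal over the 75th percentile for the 12 genes with the largest increase (left) and 10 of the 12 with the largest decrease (right) among called genes with no overlap; red points are the 4 Arg1- brain arrays, blue points the 3 post-TBI blood arrays, and ticks the means. No gene shows overlap, and the blood arrays lie at the floor of -4.32 for Pdpn, Ccl7, Syngr1, Inhba and Sdc4.

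Genes of matrix remodelling and wound repair were more often higher than lower. Of 28 tested members of this list, 14 were higher and 2 lower, with a median of 1.03 against -0.02 for all genes and 0.88 to 0.95 within the 3 slides. Mmp14, a membrane-bound protease that cleaves collagen and activates other proteases, read 2.43, 2.62, 2.82 and 3.14 against -3.28, -2.96 and -2.94 in blood (5.82 ± 0.18, adjusted p = 1.3e-11). Plau, the urokinase that makes plasmin, was higher by 4.55 ± 0.26 (adjusted p = 7.2e-09). Its receptor Plaur was at 0.23 ± 0.25 and did not pass the test. Sparc, a collagen-binding matrix protein, and Thbs1, a matrix glycoprotein that activates TGF-beta, were higher by 3.53 ± 0.37 and 2.74 ± 0.47. The collagens Col1a1 and Col3a1 differed by -0.02 and 0.01 and did not pass the test. The lower members were Cd44, the hyaluronan receptor, at -0.70 ± 0.19, and the neutrophil collagenase Mmp8 at -1.88 ± 0.22.

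Secreted growth factors were higher in 12 of 21 tested members and lower in 0, with a median of 1.44 (0.83 to 1.68 within slides). Inhba, whose protein forms activin A, read 3.39, 1.88, 1.46 and 1.98 on the Arg1- arrays and sat at the floor on every blood array, though flagged above background on 1 of them (adjusted p = 5.6e-09). Its difference of 6.50 is set by the floor and ran from 4.118 to 7.502 over the alternatives. Replicate 1 lay above the other brain samples. Vegfa, the main growth factor for vessels, read 5.48, 4.85, 4.63 and 5.10 against -0.02, 0.20 and 1.79 (4.36 ± 0.62, adjusted p = 7.2e-05). The highest blood value was that of replicate 4. Gdf3, a TGF-beta family ligand, was higher by 2.87 ± 0.31 (adjusted p = 5.5e-06), and Areg, a ligand of the EGF receptor, was at least 6.13-fold higher (adjusted p = 9.2e-06). Tgfb1, Hgf, Pdgfb and Vegfb differed by -0.29, -0.16, -0.16 and -0.27, none past the test.

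In the list of alternative activation and arginine use, 13 of 22 members were higher and 3 lower (median 1.68, 1.53 to 1.81 within slides). Beside Arg1, the arginine transporter Slc7a2 was at least 7.17-fold higher (adjusted p = 1.3e-07), the transporter Slc7a1 higher by 2.12 ± 0.20 and the mitochondrial arginase Arg2 by 2.60 ± 0.26. Ass1, which rebuilds arginine from citrulline, read 2.73, 2.76, 3.35 and 3.00 against -0.20, -0.56 and -0.81 (3.48 ± 0.27, adjusted p = 1.9e-07). The arginine-consuming enzyme that makes nitric oxide in activated macrophages, Nos2, was near the bottom of the scale in both groups, at -2.41, -3.23, -3.81 and -3.55 against the floor in blood, at least 2.1-fold higher (adjusted p = 0.028). It was above background on 2 Arg1- arrays and lost its call without 1 of 5 arrays in turn: Arg1- replicate 1 or 2 or any of the 3 blood replicates. The mannose receptor Mrc1 was higher by 3.34 ± 0.46 (adjusted p = 5.6e-05), at -0.18, 0.03, -0.21 and 0.11 against -3.93, -3.24 and -3.04. Chil3, a secreted chitinase-like protein, was lower, with a difference of -1.18 ± 0.27 (adjusted p = 0.0037). Retnla read -3.24, -1.71, -2.46 and -1.06 against -1.74, -1.89 and -3.43, which overlapped (0.24 ± 0.54, adjusted p = 0.79). Lower as well were Il13ra1 and the transcription factor Irf4, at -0.80 ± 0.22 and -1.49 ± 0.21.

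Uptake receptors were divided. Of 22 tested scavenger and dying-cell receptors and their bridging proteins, 11 were higher and 5 lower (median 0.78, 0.57 to 1.14 within slides). The count of lower members was 3 without blood replicate 1 and 3 without blood replicate 3, and 14 were higher with slide as a block. Mertk, a kinase receptor for phosphatidylserine on dying cells, read 2.10, 1.69, 1.64 and 1.50 on the Arg1- arrays and -4.04, -4.32 and -4.16 on the blood arrays (5.91 ± 0.20, adjusted p = 2.8e-11). The related receptor Axl and their ligand Gas6 were higher by 1.15 ± 0.25 and 1.46 ± 0.30, whereas Pros1, the other ligand, was lower, with a difference of -1.21 ± 0.34. Clec4n (Dectin-2) and Msr1 (scavenger receptor A) were higher by 4.87 ± 0.26 and 2.93 ± 0.22. Cd36 and Scarb1, which bind oxidised and high-density lipoprotein, were lower, with differences of -1.43 ± 0.26 and -2.04 ± 0.16, and Cd300a, an inhibitory lipid receptor, was at -1.63 ± 0.22.

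The complement and Fc receptor list had a median of 0.18, with 6 of 20 higher and 4 lower, where 17.0% and 16.4% of all genes were. The 3 chains of C1q, the first component of the classical pathway, were its largest changes. C1qb read 6.17, 6.17, 6.07 and 6.42 against 1.77, 1.07 and 1.06 (4.91 ± 0.24, adjusted p = 1.4e-09), and C1qc 3.57, 3.75, 3.68 and 3.99 against -0.51, -1.16 and -0.29 (4.40 ± 0.36, adjusted p = 3.6e-07). C1qa was higher by 6.28 ± 0.41 [n = 3 and 3] (adjusted p = 1.4e-07). Lower members included C3 at -1.21 ± 0.18, the protease C1ra at -0.83 ± 0.22, and Fcgr4, an activating Fc receptor of patrolling monocytes, at -1.17 ± 0.17. Fcgr1, the high-affinity Fc receptor, was higher by 1.45 ± 0.26 [n = 3 and 3].

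Lysosomal genes moved in a single direction among those called, with 19 of 31 higher and 0 lower (median 0.66, 0.57 to 0.87 within slides). Without blood replicate 4 the counts were 19 and 1. Ctsk read 2.72, 2.71, 2.60 and 2.38 against -1.09, -1.06 and -2.62 and Ctsl 2.96, 2.53, 2.85 and 2.30 against -0.89, -1.02 and -1.44, differences of 4.19 ± 0.33 and 3.78 ± 0.22 (adjusted p = 1.9e-07 and 8.9e-09). Both encode cathepsins that degrade matrix and engulfed protein. The tetraspanin Cd63 was higher by 5.41 ± 0.53 [n = 3 and 3] (adjusted p = 9.4e-06). Legumain (Lgmn), the cholesterol exporter Npc1 and alpha-galactosidase (Gla) were higher by 2.53 ± 0.19, 2.56 ± 0.29 and 3.20 ± 0.21. Ctss and Lyz2, highly expressed in monocytes, differed by -0.02 [n = 2 and 2] and -0.24 and did not pass the test.

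Chemokine ligands had the highest medians of the 25 lists of biology. For CC chemokines, 9 of 12 were higher and 1 lower, with a median of 2.96 (2.86 to 3.28 within slides). For CXC and other chemokines, 6 of 10 were higher and 2 lower, with a median of 3.23 (2.40 to 3.56), which was 1.53 with the floor at 0.2. The probes used for Ccl7 and Ccl12, ligands of CCR2, were at the floor on every blood array. Ccl7 read 3.70, 3.99, 3.28 and 3.41 in the brain cells, at least 242-fold higher with this probe (adjusted p = 8.2e-13), and its other probe differed by 7.06. Ccl12 read 0.99, 0.50, 0.48 and 0.63, at least 31.4-fold higher (adjusted p = 1.2e-10). Ccl2, the third ligand of this receptor, was higher by 2.81 ± 0.32. Ccl3 and Ccl4, which attract monocytes and T cells, were higher by 2.99 ± 0.37 and 3.55 ± 0.37. Cxcl3, Cxcl1 and Cxcl2, which attract neutrophils through CXCR2, were higher as well, Cxcl3 at least 44-fold (adjusted p = 5.5e-08), Cxcl1 by 3.57 ± 0.53 and Cxcl2 by 3.50 ± 0.38. Cxcl1 spanned 0.51, -1.72, -0.85 and -0.42 over the Arg1- arrays, the widest spread of the 3. Cxcl16, a membrane-bound ligand for CXCR6, read 4.89, 4.46, 4.78 and 4.72 against 0.23, -0.36 and -0.12 (4.80 ± 0.24, adjusted p = 1.4e-09). The lower chemokines were Ccl5 at -1.07 ± 0.27, the platelet chemokine Ppbp at -2.07 ± 0.47 and Cxcl9, at least 4.26-fold lower.

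The chemokine receptors as a list did not lean either way, with 4 of 15 higher and 4 lower (median -0.07). The lower count was 2 without blood replicate 4, and the sign of the median differed between slides (-0.38 to 0.02). Ccr2 read 3.07, 2.48, 3.25 and 2.60 on the Arg1- arrays and 3.78, 3.45 and 2.44 on the blood arrays, which overlapped (-0.37 ± 0.31, adjusted p = 0.41). With the mean of its probes in place of the brightest it was called lower (-0.65, adjusted p = 0.029). Cx3cr1, the fractalkine receptor, was lower, with a difference of -0.90 ± 0.25 [n = 3 and 3] (adjusted p = 0.014), a call lost without Arg1- replicate 1 (adjusted p = 0.060). Ccr1, a receptor for inflammatory CC chemokines, was higher by 2.66 ± 0.29 (adjusted p = 6.4e-06). Ccr7, which guides dendritic cells and T cells toward lymph nodes, read 1.39, 0.76, 1.26 and 1.41 against -2.97, -1.98 and -0.85 (3.14 ± 0.46, adjusted p = 9.5e-05). Blood replicate 4 had the highest of the 3 blood values. Arg1+ cells averaged -3.28 for Ccr7, below all 4 Arg1- arrays, a difference of 4.48 (adjusted p = 3e-05), where 5.04% of all genes were called between the 2 brain fractions.

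**Figure D3:**
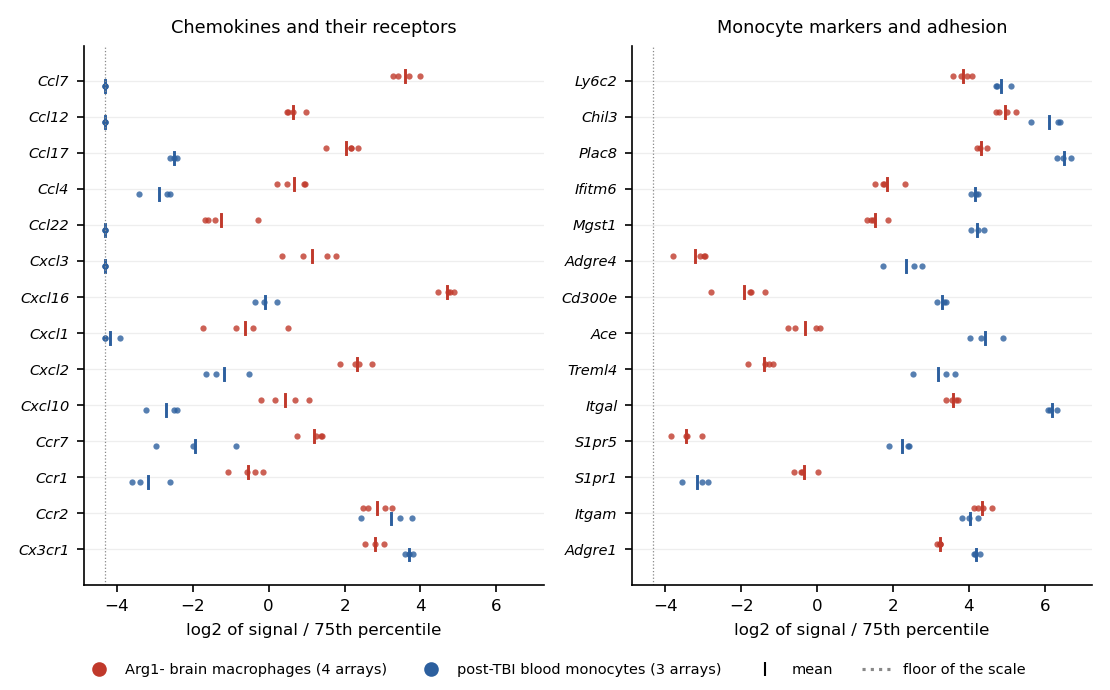
Each array's log2 signal over the 75th percentile for chemokines and their receptors (left) and for monocyte markers and adhesion genes (right); red points are the 4 Arg1- brain arrays, blue points the 3 post-TBI blood arrays, and ticks the means. Ligands such as Ccl7 and Cxcl3 lie at the floor in blood, Ccr2 and Itgam overlap between the groups, and Adgre4, S1pr5 and Ace lie far lower in the brain cells.

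Inflammatory cytokines were higher in 10 of 16 tested members and lower in 2 (median 1.13, 1.02 to 1.61 within slides). Leaving out blood replicate 3 left 6 higher, and leaving out blood replicate 4 left 8. Tnf read 3.20, 1.81, 2.79 and 2.88 against -0.39, -1.21 and -0.30 (3.31 ± 0.37, adjusted p = 7e-06). Il1a was higher by 3.68 ± 0.31 (adjusted p = 5.3e-07). Il1rn, the antagonist of the IL-1 receptor, read 3.42, 3.38, 2.95 and 2.92 against -0.41, -0.35 and 0.23 (3.34 ± 0.22, adjusted p = 3e-08), and Il1r2, the decoy receptor, was higher by 3.23 ± 0.44 (adjusted p = 4.5e-05). Il1b, by contrast with these, read 2.75, 1.79, 2.35 and 2.56 against 1.65, 1.09 and 1.68, a difference of 0.89 ± 0.31 (adjusted p = 0.038). That call was lost without Arg1- replicate 1, 3 or 4 or blood replicate 3. Ptgs2, the inducible cyclooxygenase, was higher by 2.51 ± 0.48 (adjusted p = 0.00092), while its other probe, at 0.78, did not pass the test. Il18 and Il15 were lower, with differences of -1.0 ± 0.35 and -1.34 ± 0.30.

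Sensors of microbial products and the inflammasome had a median of -0.37, below 0 within each slide (-0.47 to -0.11), and of -0.14 without blood replicate 4. Of 23 tested members, 9 were lower and 4 higher, and 2 were higher without Arg1- replicate 1, 3 or 4. Tlr7, an endosomal receptor for single-stranded RNA, read 0.06, -0.05, -0.22 and -0.42 against 1.62, 1.48 and 1.30 (-1.63 ± 0.16, adjusted p = 3e-06). Lower too were Tlr8 at -1.35 ± 0.23 and Casp1, the protease that matures IL-1 beta and IL-18, at -1.33 ± 0.21 (adjusted p = 0.00031 and 0.00017). Higher were Cd14, the co-receptor for lipopolysaccharide, at 1.61 ± 0.31, and Tlr2 and Nlrp3 at 1.21 ± 0.18 and 0.69 ± 0.25. Among NF-kB subunits and feedback genes, 8 of 23 were higher and 4 lower (median 0.29). Leaving out Arg1- replicate 1 or blood replicate 3 left 4 higher, and leaving out Arg1- replicate 3 left 5. The lower count was 2 without Arg1- replicate 3 and 2 without blood replicate 4. The median was below 0 on slide 3 (-0.10 to 0.37 over slides). Nfkbid was higher by 1.50 ± 0.27, and Birc3, a ubiquitin ligase of TNF receptor signalling, was lower, with a difference of -1.77 ± 0.22.

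Genes of glycolysis and of the response to low oxygen were higher in 19 of 27 tested members and lower in 3, with a median of 1.26 (1.11 to 1.49 within slides). Without Arg1- replicate 4 the counts were 17 and 1, and without blood replicate 4 20 and 2. Egln3, an oxygen-sensing prolyl hydroxylase, read 1.28, 1.04, 0.02 and 0.43 against -3.17, -2.63 and -2.72 (3.53 ± 0.39, adjusted p = 6.1e-06). Pfkfb3, which makes the activator of phosphofructokinase, read 4.86, 4.58, 4.10 and 4.39 against 1.91, 2.06 and 1.54 (2.65 ± 0.20, adjusted p = 1.2e-07), and Ankrd37, a HIF target, was higher by 2.36 ± 0.36 (adjusted p = 0.00014). Hif1a, the oxygen-regulated subunit of the factor, was higher by 1.63 ± 0.27. Enzymes along the pathway were higher by smaller amounts: Tpi1 by 1.91 ± 0.16, Eno1 by 1.71 ± 0.23, Pgk1 by 1.43 ± 0.26, Aldoa by 1.26 ± 0.22 and Ldha by 1.15 ± 0.27 [n = 2 and 2]. The glucose transporters split, with Slc2a1 higher by 1.91 ± 0.43 and Slc2a3 lower, with a difference of -1.70 ± 0.53. Lower as well were Pfkfb4 and Ndrg1, at -1.17 ± 0.24 and -0.75 ± 0.27.

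The promoters of these genes are shown for description. The HIF core motif ACGTG was searched on both strands in windows of RefSeq promoters (GRCm38.p6) from 250 bases before to 50 bases after each start site. Of 34 promoters listed for 25 of the tested members, 19 (55.9%) held it, against 19.6% of all 32851 promoters, with no match on base composition. The 170 bases before the start sites of Ldha (chr7:46845634-46845803, plus strand) and Pfkfb3 (chr2:11502091-11502260, minus strand) follow, with the matches in capitals. Within CACGTG the matches on both strands overlap. A match is a description of these letters and not evidence of binding. The list was made up of genes known for this response, and members with a match include Bnip3 and Hk2, which were not called. The share therefore does not bear on which members rose.
Ldha: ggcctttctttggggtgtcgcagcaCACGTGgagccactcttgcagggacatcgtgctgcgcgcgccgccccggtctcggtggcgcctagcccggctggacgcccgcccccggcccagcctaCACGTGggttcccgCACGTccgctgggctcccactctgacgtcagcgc
Pfkfb3: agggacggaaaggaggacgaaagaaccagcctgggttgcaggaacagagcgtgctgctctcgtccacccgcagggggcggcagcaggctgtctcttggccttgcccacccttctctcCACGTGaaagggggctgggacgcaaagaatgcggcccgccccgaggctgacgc

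In the integrated and endoplasmic reticulum stress list, 19 of 29 members were higher and 3 lower (median 0.97, 0.82 to 1.08 within slides). Slc7a11, the cystine importer, read 1.08, 0.60, 0.59 and 0.69 with no blood array above background, at least 32.9-fold higher with the probe used (adjusted p = 1.8e-09). The smallest difference among its 3 probes was 4.15. Trib3 and Chac1, targets of the factors ATF4 and CHOP, were higher (adjusted p = 5.3e-09 and 6.2e-08), Chac1 at least 8.83-fold. The brighter of 2 Trib3 probes differed by 4.38, with blood not above background, and the other by 1.38. Atf4 itself was higher by 1.05 ± 0.28 [n = 2 and 2], Ddit3 (CHOP) by 1.61 ± 0.21 and Asns, asparagine synthetase, by 2.49 ± 0.25. The sensor Eif2ak3 (PERK), Atf6 and the mTOR inhibitor Ddit4 were lower, with differences of -1.28 ± 0.21, -0.46 ± 0.16 and -1.32 ± 0.33. For heme, iron, NRF2 and metallothionein genes, 9 of 23 were higher and 2 lower (median 0.35). Srxn1, which repairs oxidised peroxiredoxins, read 3.01, 2.59, 2.88 and 2.66 against 0.70, 0.41 and 0.40 (2.28 ± 0.19, adjusted p = 3.4e-07), and the thioredoxin reductase Txnrd1 was higher by 1.64 ± 0.18. Mt2, a metal-binding metallothionein, was higher by 2.23 ± 0.34 (adjusted p = 0.00014). Gsr, glutathione reductase, was lower, with a difference of -2.28 ± 0.20 [n = 4 and 2] (adjusted p = 1.4e-06). Nqo1 and Gclm, also NRF2 targets, differed by -0.24 and -0.12 and did not pass the test. The other 12 of that list were not called. Heat shock chaperones were higher in 9 of 24 and not called in the other 15 (median 0.39). Without Arg1- replicate 3 the higher members numbered 4, and without blood replicate 4 they numbered 4 with 1 lower, a share of higher members close to the 17.0% of all genes. Hsp90ab1 read 6.10, 6.16, 5.99 and 6.19 against 5.35, 5.27 and 5.32 (0.80 ± 0.15, adjusted p = 0.00093).

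Immediate early genes, which switch on within minutes of a stimulus, were higher in 15 of 28 and lower in 5 (median 0.95, 0.42 to 1.02 within slides). Members of the Nr4a family and of the AP-1 factors changed in opposite directions. Nr4a3 and Nr4a2, orphan nuclear receptors, were higher by 3.72 ± 0.47 and 3.1 ± 0.53 (adjusted p = 2.5e-05 and 0.00037), and Nr4a1, which patrolling monocytes need, was lower, with a difference of -2.13 ± 0.48 (adjusted p = 0.0033). Gadd45b and Ier3 were higher by 3.77 ± 0.32 and 3.39 ± 0.39 [n = 3 and 3]. Jun and Egr1 were higher by 3.03 ± 0.23 and 2.53 ± 0.39, while Fos and Zfp36 were lower, with differences of -0.85 ± 0.21 and -1.43 ± 0.34, and Junb, at -0.28 ± 0.51, did not pass the test. The digestion step belonged to the brain samples alone, and its part in these values was not tested.

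Interferon-stimulated genes were higher in 15 of 34 members and lower in 3 (median 0.61, 0.16 to 0.86 within slides). The lower count was 1 without any 1 of Arg1- replicates 2, 3 and 4 or blood replicates 3 and 4. Isg15, a ubiquitin-like modifier, read 2.67, 2.19, 2.04 and 2.63 against 0.56, -0.02 and 0.03 (2.19 ± 0.23, adjusted p = 5.1e-06). Cxcl10 read 1.07, -0.20, 0.68 and 0.17 against -2.41, -3.23 and -2.49 (3.14 ± 0.39, adjusted p = 2.2e-05). Oasl1, which restrains translation of Irf7, was higher by 3.05 ± 0.29 (adjusted p = 1.6e-06), and Ifit3b and Ifit3, near-identical copies whose probes can share signal, by 2.51 ± 0.40 and 2.12 ± 0.38. Arg1+ cells averaged 2.29 for Isg15. Normal blood monocytes averaged 1.09 for Isg15, -1.04 for Cxcl10 and 0.69 for Oasl1, between post-TBI blood and the Arg1- cells. For Ifit3b, normal blood averaged -0.58, beside -0.57 in Arg1- cells and -3.09 in post-TBI blood, which was lower than normal blood (-2.51, adjusted p = 0.034). For Ifit3, normal blood averaged 4.31, above the Arg1- mean of 3.94. The guanylate-binding proteins Gbp2 and Gbp3 and the exonuclease Isg20 were lower, with differences of -1.14 ± 0.40, -1.18 ± 0.42 and -1.97 ± 0.35. Irf9, a subunit of an interferon-activated factor, was at -0.14 ± 0.16 and did not pass the test.

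The interferon response motif, GAAA repeated after any 2 bases and searched on both strands, was found in 18 of 34 promoters (52.9%) of 28 tested members and in 3.44% of all promoters. It is shown for Isg15 (chr4:156200819-156200988, minus strand) and Ifit3 (chr19:34583359-34583528, plus strand), with matches in capitals. In the Isg15 sequence 3 matches overlap, and in Ifit3 both are read on the other strand. Txnrd1 (chr10:82859036-82859205, plus strand) stands beside them for the antioxidant response motif TGACNNNGC, which was in 7 of 25 promoters (28.0%) of the heme, iron and NRF2 list and in 12.4% of all. These lists too were made up of known genes. Members with a match include Rsad2, which was not called, and Gbp2 and Hfe, which were lower, so the shares do not bear on which members rose.
Isg15: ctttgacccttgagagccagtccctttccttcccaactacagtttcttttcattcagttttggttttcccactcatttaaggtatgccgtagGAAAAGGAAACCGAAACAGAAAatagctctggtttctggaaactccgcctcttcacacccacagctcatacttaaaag
Ifit3: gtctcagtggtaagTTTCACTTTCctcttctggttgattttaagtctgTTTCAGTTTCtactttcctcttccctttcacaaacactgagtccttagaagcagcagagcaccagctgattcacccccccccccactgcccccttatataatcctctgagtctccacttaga
Txnrd1: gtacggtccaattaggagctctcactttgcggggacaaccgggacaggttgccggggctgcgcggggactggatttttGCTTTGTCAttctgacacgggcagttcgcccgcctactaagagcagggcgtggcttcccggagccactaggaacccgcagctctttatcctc

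Transcription factors of the macrophage lineage were about evenly divided, 11 higher and 10 lower of 29 (median 0.09, -0.07 to 0.38 within slides). Maf, which marks differentiated macrophages, read 2.62, 2.49, 2.19 and 2.31 against 0.25, -0.38 and 0.30 (2.35 ± 0.22, adjusted p = 1.2e-06). Mitf and Tfec, related factors that act on lysosomal genes, were higher by 2.21 ± 0.20 and 2.27 ± 0.31. Bhlhe41 was at least 10.1-fold higher with the probe used (adjusted p = 2.8e-08), and its other probe differed by 2.61. Spi1 (PU.1), shared by monocytes and macrophages, was at -0.04 ± 0.20 and did not pass the test. Lower were Pparg at -1.85 ± 0.24, Mef2c at -1.31 ± 0.26, Batf3 at -1.56 ± 0.33 and Cebpb at -0.95 ± 0.27.

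Lipid handling genes were split as well, 8 higher and 9 lower of 25 (median -0.14, -0.11 to 0.29 within slides). Leaving out Arg1- replicate 1 or 3 or blood replicate 3 left 5 higher. The cholesterol exporter Abca1 read 3.20, 3.1, 3.09 and 2.65 against -0.70, -0.56 and -0.98 (3.76 ± 0.20, adjusted p = 1.1e-08). Ch25h, which makes the sterol 25-hydroxycholesterol, was at least 5.32-fold higher (adjusted p = 1.4e-06). Cyp27a1, a sterol hydroxylase, was lower, with a difference of -2.37 ± 0.22 (adjusted p = 1.3e-06). Of 30 sterol and fatty acid synthesis genes, 4 were higher and 3 lower, 2 and 4 without blood replicate 4, where 17.0% and 16.4% of all genes were. Fads1, a fatty acid desaturase, was the largest change at 2.98 ± 0.29. Among MHC class II presentation genes, 4 of 14 were higher and 0 lower, where 17.0% and 16.4% of all genes were. The co-stimulatory ligands Cd86 and Cd80 were higher by 2.02 ± 0.25 and 1.95 ± 0.29. H2-DMb2 and Ifi30 were higher by 1.76 ± 0.38 and 0.81 ± 0.25 [n = 3 and 2] (adjusted p = 0.0024 and 0.024). H2-Ab1, H2-Aa and Cd74 differed by 1.01 [n = 3 and 3], 1.00 and 0.93 [n = 2 and 3] and did not pass the test. Cell cycle genes were higher in 10 of 36 and lower in 3, where 17.0% and 16.4% of all genes were. Cdkn1a, an inhibitor of the cycle, was at 2.34 ± 0.27 and Ccnd2 at 2.33 ± 0.22. Top2a and Mcm3, genes of DNA replication, were higher by 1.73 ± 0.37 and 1.72 ± 0.29 (adjusted p = 0.0023 and 0.00031). Mki67, the usual proliferation marker, was at -0.62 ± 0.30 with no call. Glucocorticoid-induced genes were 5 higher and 6 lower of 16. Fkbp5 read 3.48, 3.39, 3.18 and 3.13 against 2.97, 2.71 and 3.01 (0.40 ± 0.16, adjusted p = 0.068), beside 1.34 in normal blood, and Tsc22d3 was lower, with a difference of -1.75 ± 0.19.

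**Figure D4:**
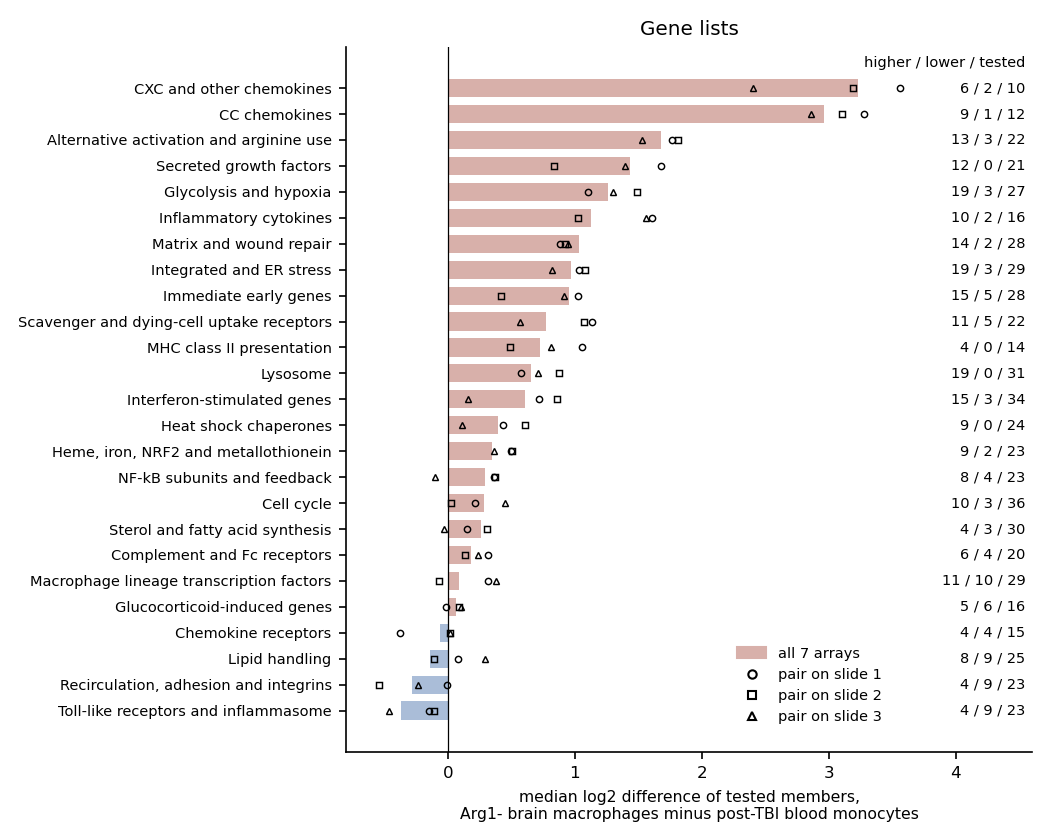
Median log2 difference (x axis) of the tested members of each list of biology, Arg1- brain minus post-TBI blood, as bars over all 7 arrays and as open symbols for the pair of arrays that shares a slide; numbers at the right count higher, lower and tested members. The 2 chemokine lists have the longest bars, the bars of the toll-like receptor and adhesion lists lie below 0, and the medians of chemokine receptors, lipid handling, sterol synthesis, NF-kB, lineage factor and glucocorticoid genes change sign between slides.

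Markers of circulating monocytes were lower in the brain cells, those of the patrolling subset most. Of 16 tested markers of patrolling Ly6C-low monocytes, 15 were lower and 0 higher, with a median of -2.65 (-2.69 to -2.48 within slides). Adgre4, an adhesion G protein-coupled receptor, read -3.80, -2.95, -2.99 and -3.10 against 2.78, 2.56 and 1.73 (-5.57 ± 0.27, adjusted p = 1.4e-09). Lower as well were Cd300e, an activating receptor, at -5.23 ± 0.32, the angiotensin-converting enzyme Ace at -4.75 ± 0.43 and Treml4 at -4.59 ± 0.29 (adjusted p = 1.6e-08, 1.1e-06 and 2.3e-08). The remaining called members were lower, from -4.08 (Spn) to -0.90 [n = 3 and 3] (Cx3cr1), and Itgax, at 0.07 ± 0.27, did not pass the test. Summed, these markers came to 43.7 to 49.95 times the 75th percentile on the Arg1- arrays and 243 to 269 on the blood arrays.

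Markers of Ly6C-high monocytes were lower in 9 of 14 and higher in 2, with a smaller median of -1.09 (-1.41 to -1.23 within slides). Ly6c2 read 3.80, 3.58, 3.96 and 4.09 against 4.74, 4.72 and 5.12 (-1.0 ± 0.22, adjusted p = 0.0023), lower yet well above background on all arrays. Mgst1, Ifitm6 and Plac8 were lower, with differences of -2.69 ± 0.20, -2.33 ± 0.21 and -2.17 ± 0.22 [n = 3 and 3]. The higher members were the matrix proteins Thbs1 and Fn1, at 2.74 ± 0.47 and 1.11 ± 0.32 [n = 3 and 2], and Vcan was at -0.01 ± 0.27 with no call. The summed level overlapped, at 386 to 620.1 on the Arg1- arrays and 379 to 461 on the blood arrays. That sum includes Thbs1, which read 8.07, 7.99, 7.19 and 7.82 against 4.37, 4.49 and 6.21. Tissue macrophage markers were higher in 16 of 19, lower in 1 and not called in 2, with a median of 2.53. Their sums were 536 to 724 on the Arg1- arrays and 242 to 351 on the blood arrays. Ear1, Ear6 and Ear10, ribonucleases known from eosinophils and also from patrolling monocytes, were lower, with differences of -4.13 ± 0.26, -3.89 ± 0.26 and -4.67 ± 0.40, and their probes can take up each other's RNA. The other 7 tested eosinophil markers, Epx and Siglecf among them, did not pass the test.

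Genes of adhesion and recirculation were lower in 9 of 23 members and higher in 4, or in 6 without blood replicate 4 (median -0.28, -0.54 to -0.01 within slides). Itgal, the alpha chain of LFA-1, read 3.56, 3.41, 3.67 and 3.70 against 6.10, 6.15 and 6.31 (-2.60 ± 0.14, adjusted p = 1.1e-08), and Itga4, a chain of VLA-4, was lower, with a difference of -2.36 ± 0.22. The receptors for sphingosine 1-phosphate, which guide exit from tissue into blood, moved apart. S1pr5 read -3.85, -3.46, -3.02 and -3.43 against 2.44, 2.40 and 1.89 (-5.68 ± 0.22, adjusted p = 1e-10), and S1pr4 was lower, with a difference of -1.11 ± 0.27. S1pr1 read 0.03, -0.42, -0.40 and -0.60 against -3.55, -3.02 and -2.88, higher by 2.80 ± 0.27 (adjusted p = 2e-06). Itga5 and Itgb5, integrin chains that bind fibronectin and vitronectin, were higher by 1.64 ± 0.17 and 1.86 ± 0.18.

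Markers of other cell types were read for every list. Neutrophil markers were higher in 8 of 16 and lower in 3, with sums of 37.5 to 149 on the Arg1- arrays and 23.8 to 109 on the blood arrays. Granule genes and S100a9 led them. Camp, the cathelicidin precursor, read 2.31, 2.90, 2.84 and 0.43 against -4.32, -3.0 and -2.83 (5.50 ± 0.73, adjusted p = 4e-05), and Ltf, lactoferrin, 4.71, 5.41, 4.75 and 2.80 against -4.32, -1.25 and -1.52 (6.78 ± 0.78, adjusted p = 9.5e-06). Ngp and S100a9 were higher by 5.78 ± 0.64 and 4.75 ± 0.79. Arg1- replicate 4 was the lowest brain array for all 4 genes. Arg1+ cells averaged -2.61 for Camp and 0.14 for Ltf, and the Arg1- cells were higher than these by 4.73 and 4.27 (adjusted p = 0.00075 and 0.0027). Csf3r, Mmp8 and Cd177 of the same list were lower, with differences of -1.83 ± 0.23, -1.88 ± 0.22 and -1.31 ± 0.25. Cd177 is in the Ly6C-high monocyte list as well. The neutrophil sum on the Arg1+ arrays was 11.9 to 22.9. Cxcr2, the neutrophil chemokine receptor, read -2.92, -2.0, -2.29 and -3.13 against -2.88, -3.87 and -4.32, which overlapped (1.11 ± 0.36, adjusted p = 0.027). The part of neutrophil RNA in the chemokine, cytokine and Cxcr2 values was not tested.

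Dendritic cell markers were higher in 4 of 12 and lower in 2, where 17.0% and 16.4% of all genes were. Their sums were 9.8 to 13.2 against 5.87 to 8.24. The higher members were Ccr7, the chemokine Ccl22 (at least 8.45-fold), the actin-bundling protein Fscn1 (3.1 ± 0.24) and Siglech, which is in the microglial list as well. The lower members included the transcription factor Batf3, at -1.56 ± 0.33. Ccl22 was at the floor on every blood array, and Arg1+ cells averaged -4.32. Ccl17, another chemokine of dendritic cells, read 1.51, 2.16, 2.35 and 2.16 against -2.42, -2.50 and -2.60 (4.55 ± 0.30, adjusted p = 3e-08), beside -1.13 in Arg1+ cells. Flt3, Xcr1 and Cd209a did not pass the test, and the part of dendritic cells in the Ccr7 value was not tested. T cell markers summed to 5.17 to 8.51 against 1.96 to 2.71. Il7r, listed with them, was higher by 5.45 ± 0.29 (adjusted p = 4.2e-09), while Cd3d, Cd3e, Cd3g and Cd2 were lower and Cd4, Cd8a and Bcl11b were not called. All 8 tested B cell markers were lower, with sums of 1.92 to 2.3 against 6.6 to 6.72, and Ms4a1 and Pax5 were not well above background on any Arg1- array. The platelet markers were lower in 8 of 9, 6 without blood replicate 4, with sums of 3.14 to 6.67 against 17 to 29. Natural killer cell markers were 1 higher and 1 lower of 11, and the lower count was 3 without blood replicate 1 and the higher count 2 without blood replicate 4. In the mast cell and basophil list, Gata2 was the called member of 5, lower, with a difference of -2.75 ± 0.88 (adjusted p = 0.026), a call lost without blood replicate 4 (adjusted p = 0.073) and in 6 other alternatives.

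Microglial markers were higher in 12 of 16, 9 without blood replicate 4, and lower in 1 (median 1.43, 1.32 to 1.92 within slides). Fcrls read 3.22, 3.50, 3.45 and 3.27 against -2.35, -2.06 and -2.38 (5.62 ± 0.21, adjusted p = 8.4e-11), Olfml3 was higher by 4.72 ± 0.24 and Tmem119 read 2.46, 2.75, 2.68 and 2.58 against -0.87, -1.19 and -1.08 (3.66 ± 0.19, adjusted p = 3.2e-09). Sall1, a microglial transcription factor, was higher by 2.92 ± 0.33, and P2ry12, a purine receptor that defines resting microglia, was at -0.09 ± 0.41 with no call. Summed levels overlapped, at 134 to 166 against 117 to 218. That sum includes Csf1r, which was bright in both groups, so its overlap does not describe the genes named above. Of neuron, astrocyte and oligodendrocyte markers, 3 of 10, 2 of 9 and 1 of 7 were higher, where 17.0% of all genes were. Among neuron markers Gad1 was lower with both of its probes, at -2.91 and -2.46. Without blood replicate 4 the oligodendrocyte count was 0, and with slide as a block the astrocyte count was 4. Slc1a2, the astrocyte glutamate transporter, was at least 29.1-fold higher with the probe used (adjusted p = 1.6e-08), and its other probe differed by 2.50. Gfap, Aqp4 and Aldh1l1 did not pass the test. Snap25 and Stmn2 of neurons were at least 5.03-fold and 4.25-fold higher, at levels near the bottom of the scale. Mbp, a myelin gene that blood cells also transcribe, had 3 probes, of which 2 were higher and 1, the brightest, lower, with a difference of -2.35 ± 0.15. Endothelial markers were higher in 3 of 8 and lower in 1, where 17.0% and 16.4% of all genes were. Kdr, the main VEGF receptor, was at least 18.9-fold higher (adjusted p = 1.4e-08) and Vwf lower, with a difference of -1.67 ± 0.42. The part of brain cells of these types in the Sparc, Vegfa and C1q values was not tested.

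**Figure D5:**
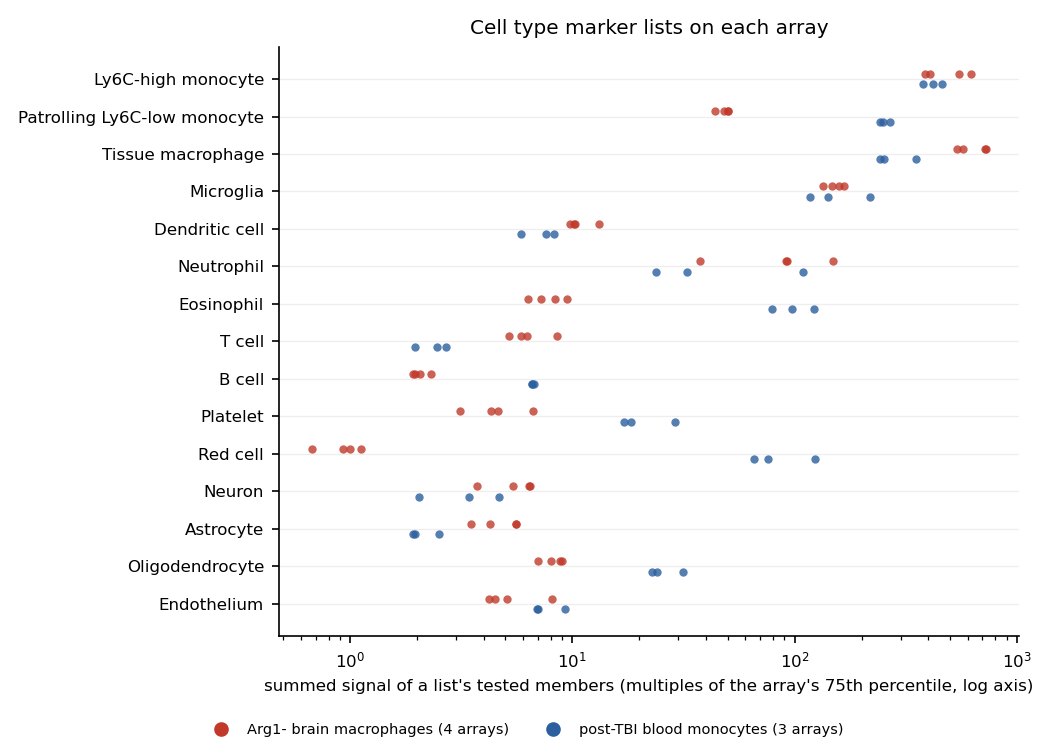
Summed signal of the tested members of each cell type marker list (x axis, multiples of the array's 75th percentile, log axis) on the 4 Arg1- brain arrays (red) and the 3 post-TBI blood arrays (blue). A member left out on an array for outlier spots adds nothing to that array's sum. Patrolling monocyte, eosinophil, B cell, platelet, red cell and oligodendrocyte sums are lower on every brain array than on every blood array, while those of Ly6C-high monocyte, microglia, neutrophil, neuron and endothelial markers overlap. A sum weighs bright members most, such as Csf1r for microglia and, on brain arrays, Thbs1 for Ly6C-high monocytes.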

How the data were processed

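RNA of sorted cells was amplified with a whole transcriptome kit, labelled with Cy3 and hybridised to 1-colour Agilent mouse arrays. Per the file headers, the deposited scanner files of Feature Extraction hold a processed signal intensity per spot, background-subtracted and not scaled between arrays, with 0 or 1 flags and other values per spot. The authors' deposited log2 table ordered the probes of an array as their median spot signal does, and was used as an alternative. Per the submitters' processing notes limma was used, and the version and steps are not given in the sources used here.

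Each processed signal was divided by the 75th percentile of its array over non-control probes, floored at 0.05 and log2 transformed. Spots flagged as outliers were left out. Probes well above background on fewer than 3 of 14 arrays (13101) or with fewer than 2 usable arrays in a group (464) were dropped. RefSeq accessions (table on GRCm38.p6) named 24844 of 41174 probes as 17178 symbols. The remaining 16330 stayed unnamed and stood each for itself, and the array's annotation was made on mm9. For 4417 symbols with 2 or more probes left the brightest was taken, which gave 21969 tested genes, 12965 of them with a symbol. "At least" folds set the brain or blood mean against the higher of the dim probe's own value and the lowest well-above-background signal, for the probe used. For probes such as those of Pdpn, Areg and Ch25h that level was the floor, so these folds are bounds on this scale alone. Over the alternatives the log2 difference ran from 0.6151 to 3.297 for Areg and from 0.4119 to 3.454 for Ch25h. Another probe of Ccl7, Syngr1, Sdc4, Trib3 and Bhlhe41 was above background on some blood array. Probes of Trib3, Gpnmb, Fcrls, Slc1a2, Cxcl16, Vegfa, Syngr1, Plau, Ptgs2, Ptprc, Gata2, Il1rn, Msr1, Mmp14 and Il1a gave differences of 1 sign but over 1 log2 unit apart. No probe was saturated, and the number of arrays limits the precision.

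All 14 arrays entered 1 fit on 4 groups (limma 3.58.1 in R 4.3.3, lmFit and eBayes with trend, 10 residual degrees of freedom, two-sided, Benjamini-Hochberg over all genes). Where outlier spots left a gene with fewer arrays, its Arg1- and blood n follow its value. Summed levels of a list skip such members on the arrays concerned, so arrays can be summed over different members. Cd63, for example, was missing on Arg1- replicate 1. The members and the 42 lists (25 of biology, 17 of markers) were chosen with earlier results of these data known. Named genes are the 12 called genes with a symbol with the largest difference in each direction without overlap, up to 4 called members with the largest absolute difference per list, and 22 fixed genes. Further list members are named to show where a list splits and were chosen after their values were seen. Some genes that meet these rules are not reported here. The fit was tested on simulated data for this comparison, with 200 of 21969 genes changed: at a log2 change of 2 it called 80% of lowered and 78% of raised genes, at a change of 1 it called 30% of each, and 5 of its 114 calls were false. The simulated noise was normal with no floor, and far fewer genes were changed than the 33.4% called here. These rates therefore need not hold for the real data. Alternatives covered the 7 arrays alone, scaling, background (normexp on median signals, since mean signals were not in the files), filters, floor, probe choice, flags, variance model, slide block, replicate block and leaving out each array.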

Additional observations from a re-analysis of the deposited data

Results flagged for a closer look

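Among the 4 Arg1- arrays, 169 named genes and the summed levels of 42 lists were read for a single array that stands apart from the other 3 by Dixon's criterion, which chance meets in about 1 in 20 groups. Named genes with fewer than 4 usable Arg1- arrays, Cd63 and C1qa among them, could not be assessed though they are in that count. It was met 7 times. Emp1 read 4.04 on replicate 2, beside 3.52 to 3.55 on the others, and Adgre4 -3.80 on replicate 1, beside -3.10 to -2.95. Tlr8 read 0.40 on replicate 1, beside -0.27 to -0.16. Gad1 read -3.96 on replicate 2, with the others at the floor, where any value above the floor meets the criterion. Adgre1 read 3.16 on replicate 2, with the others at 3.25. Vwf, the von Willebrand factor of endothelium and platelets, read 1.08 on replicate 4, beside 0.04 to 0.10. The dendritic cell markers summed to 13.16 times the 75th percentile on replicate 3, beside 9.799 to 10.24. The 7 cases fall on all 4 arrays.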

How the results depend on the processing

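Under 27 alternatives the genes called higher numbered 2755 to 4174 and those called lower 2816 to 3952, against 3740 and 3592. Leaving out each of the 7 arrays gave 3013 to 3896 higher and 2844 to 3635 lower. No gene was called in the opposite direction under any of them except 1 with the mean of probes. Of the named genes, Mbp, lower in the report, turned to 0.5276 with the mean of probes, where it was not called (adjusted p = 0.33). The replicate block gave 3406 higher and 3161 lower, and the slide block 4174 and 3952. The groups share replicate numbers 1, 3 and 4, but the deviations of same-numbered arrays from their group means correlated at -0.209, -0.225 and -0.096, and no array correlated best with its own number, so the numbers were not used as pairs. The 3 pairs of arrays that shared a slide correlated at 0.229, 0.162 and 0.12, and slide was a block only as an alternative. Of 170 named genes, 141 kept their call or lack of it under every alternative. Fatty acid gene Scd2 lost its call in 18, Tnip3 and Mobp in 9, Nos2 and Cxcr2 in 8, Ifi30 and Gata2 in 7 and Il1b in 6. A floor of 0.2 in place of 0.05 removed the calls of dim genes such as Areg, Ch25h, Snap25 and Slco1c1, because a higher floor shrinks differences that start below it. List medians kept their sign under all alternatives except those of chemokine receptors (5 alternatives), lipid handling (6), lineage factors (3), glucocorticoid-induced genes (3) and oligodendrocyte markers (4). With the floor at 0.2, medians of 3.23 (CXC chemokines), 1.68 (alternative activation), 1.44 (growth factors), 1.13 (cytokines), 1.03 (matrix), 0.95 (immediate early genes), 0.39 (heat shock) and -0.37 (toll-like receptors) were 1.53, 1.05, 0.30, 0.15, 0.38, 0.41, 0.20 and -0.03. The microglial median of 1.43 was 2.40 with the floor at 0.01. Tissue macrophage markers, at 2.53, were above the CXC list in the authors' table and above both chemokine lists with normexp and within slide 3. Probes not well above background in a group limit its genes to a bound there.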
